A study of Homo sapiens with 4 samples.

Results

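The genes described here are 43 genes that act at the G1/S transition of the cell cycle and in DNA replication. They were taken from a list of names, and each was read through the probe set (a group of array probes for 1 gene) with the highest mean signal over the 4 arrays among probe sets that the platform annotation pairs with that gene alone. All 43 were found, and all 43 were among the 12830 genes bright enough to be tested, of 19775 genes named by the array. Expression was measured on Affymetrix arrays in H1299, a human non-small cell lung cancer line derived from a lymph node metastasis, and in A549, a human lung adenocarcinoma line. The 4 groups were H1299 with hMOF siRNA, H1299 with scramble siRNA, A549 with hMOF siRNA and A549 with scramble siRNA, each with 1 array. All cells were cultured in DMEM with 10% fetal bovine serum and were transfected by lipofection, and the siRNA sequences and the time after transfection are not given in the labels. hMOF, encoded by KAT8, is a histone acetyltransferase that acts on lysine 16 of histone H4.

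Cells enter S phase when cyclin D with CDK4, and then cyclin E with CDK2, inactivate the retinoblastoma protein and free E2F transcription factors, whose targets include most of the genes below. Replication origins are first licensed, when ORC, CDC6 and CDT1 load the MCM2 to MCM7 helicase onto DNA. They then fire, when CDC45 and the GINS complex join the helicase and polymerases, clamp and clamp loader follow. Nucleotide supply, histone supply and chromatin assembly run alongside, and cancer cell lines in culture generally express the whole set.

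No group was replicated. A ratio within 1 line thus has no error, and for the siRNA the 2 lines stood in for repeats. The median signal lay between 73.3 and 75.4 on the 4 arrays, and log2 signals correlated at r = 0.983 between the H1299 arrays, at 0.988 between the A549 arrays and at 0.889 to 0.900 between arrays of different lines, across probe sets. The siRNA target KAT8 had signals of 61.8 with hMOF siRNA and 241 with scramble in H1299, against 106 with hMOF siRNA and 402 with scramble in A549. On 2 arrays the label for treatment disagrees with the source name, and groups follow the source names, as do the KAT8 signals. The line markers separated the lines. CDKN2A, which is deleted in A549, stood at 1176 and 1317 in H1299 and at 46.5 and 33.5 in A549, with hMOF siRNA and scramble in that order, and the epithelial cadherin CDH1 stood at 7.61 and 8.04 in H1299 and at 1562 and 1535 in A549. Of 3 alveolar genes, NKX2-1 lay below the signal minimum, at 60.8 to 72.9 on the 4 arrays. SFTPB read 702 to 798 and SFTPC 110 to 120, at like levels in both lines. NKX2-1 and SFTPB, like CDKN2A, were read on _x_at probe sets, a suffix for probes that may cross-hybridise. Of the leukocyte markers, PTPRC and CD14 lay below the minimum by mean signal. PTPRC read 31.6 to 41.5, and CD14 read 28.0 and 30.4 in H1299 and 116 and 127 in A549. CD3E, above the minimum, read 85.6 to 88.0. Of the endothelial markers, CDH5 lay below the minimum, at 32.3 to 52.5, and PECAM1 read 205 to 224. Their part in the results below was not tested. For ACTB, the control transcript used to judge RNA integrity, the 3' signal over the 5' signal came to 2.64 with hMOF siRNA and 2.89 with scramble in H1299, and 2.78 with hMOF siRNA and 3.11 with scramble in A549. For GAPDH it came to 1.09 with hMOF siRNA and 1.10 with scramble in H1299, and 1.197 with hMOF siRNA and 1.176 with scramble in A549.

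The first comparison asked how the replication genes differed between hMOF siRNA and scramble. Over both lines, 1 of the 43 genes rose, RRM2, 0 fell and the other 42 were not called (limma with cell line as a block, adjusted p under 0.05 over all 12830 genes). The same test called 1.16% of all genes higher and 2.41% lower, 3.57% in all. An unadjusted p under 0.05 was reached by 6 of the 43 genes, 2 higher and 4 lower, a share of 14.0% against 23.8% of all genes. The error in this test grows with the gap between the lines' ratios, which most of the 43 genes share (below). These shares are thus not read against each other. Within each line most genes lay on 1 side of 0, but on different sides. In H1299, 34 of the 43 had a log2 ratio above 0, with a median of 0.20, whereas in A549 32 of the 43 lay below 0, with a median of −0.18, or −0.11 when each array was centred on the median of the genes kept. Over all genes the medians were −0.01 in H1299 and −0.02 in A549, with 48.4% above 0 in H1299 and 53.6% below 0 in A549. The side of 0 depended in part on the probe set. Of 29 other probe sets of these genes above the signal minimum, 25 had the sign of the main one in H1299 and 21 in A549. Ratios are log2 of hMOF siRNA over scramble, after adding an offset of 29.06 to every signal. In bulk RNA, fewer cells in S phase and less RNA per cell cannot be told apart.

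**Figure D1:**
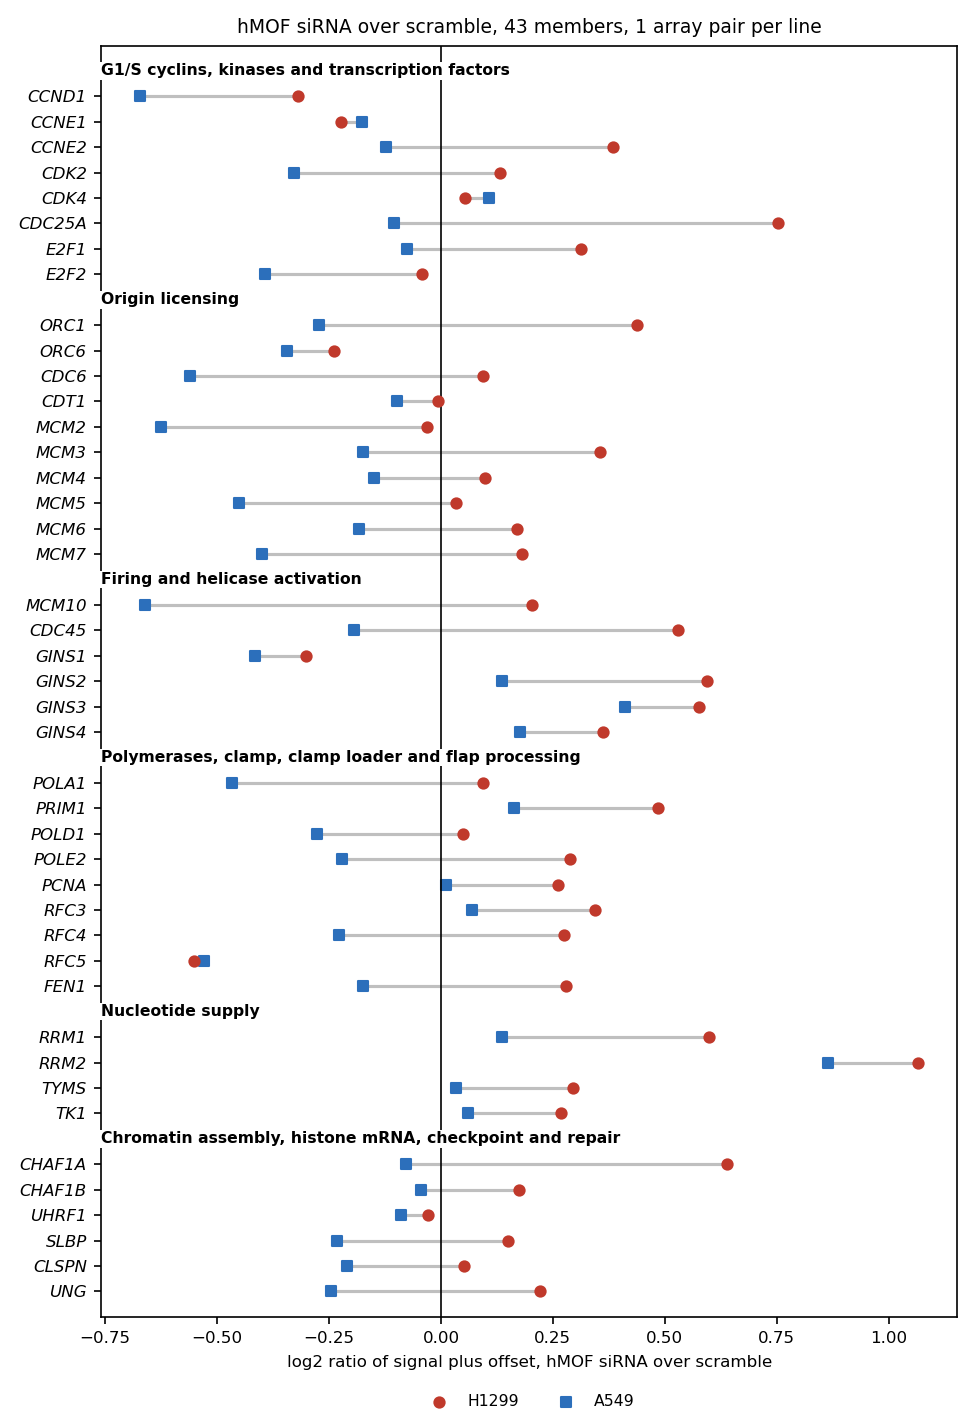
Log2 ratio of hMOF siRNA over scramble (x axis, log2 of signal plus offset) for each of the 43 genes, grouped by role, with a circle for H1299 and a square for A549, each from 1 array pair. The circle lies to the right of the square for 40 of the 43 genes, and RRM2 lies farthest to the right in both lines, at 1.07 in H1299 and 0.86 in A549.

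Few of these ratios were large. With hMOF siRNA in H1299, 5 of the 43 reached 1.5-fold higher (11.6%, against 5.06% of all genes) and none was 1.5-fold lower (7.33% of all genes). They were RRM2, CDC25A, CHAF1A, RRM1 and GINS2. In A549, 1 gene was at least 1.5-fold higher, RRM2 (3.40% of all genes), and 3 were at least 1.5-fold lower, CCND1, MCM10 and MCM2 (6.98%, against 5.78% of all genes). At 2-fold, RRM2 in H1299 was the only one of the 43 (3.43% of all genes reached 2-fold in either direction in H1299, and 1.86% in A549). These counts follow a rule of size with no test, and they moved with the probe sets and the scaling. The H1299 count of higher genes was 1 when a gene's probe sets were averaged, and the A549 count of lower genes was 1 after quantile normalization.

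The nucleotide supply genes were the role in which all members lay above 0 in both lines. RRM2, the cell cycle-regulated subunit of ribonucleotide reductase, had signals of 5695 with hMOF siRNA and 2706 with scramble in H1299, and of 3111 with hMOF siRNA and 1696 with scramble in A549. The hMOF siRNA array was the brighter of its line in each case, and the A549 array with hMOF siRNA lay above the H1299 array with scramble. Its log2 ratio was 1.07 in H1299 and 0.86 in A549 (mean 0.96 ± 0.14, SD, n = 2 lines; SE 0.12; limma adjusted p = 0.0346). A further RRM2 probe set read 5156 and 3126 in H1299 and 2813 and 1974 in A549, log2 ratios of 0.72 and 0.50, and RRM2 also passed on that probe set (limma adjusted p = 0.0407). Without the block for cell line, 0 of all 12830 genes passed, and RRM2 and the siRNA target KAT8 each had a limma adjusted p of 0.9999. The difference between the lines then enters the error, so this alternative cannot tell RRM2 from other genes.

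RRM1, the large subunit of the same enzyme, had signals of 2362 with hMOF siRNA and 1550 with scramble in H1299, against 2650 with hMOF siRNA and 2409 with scramble in A549. The array that stands lowest is H1299 with scramble. Its log2 ratio was 0.60 in H1299 and 0.14 in A549 and did not pass (limma adjusted p = 0.234). Thymidylate synthase, TYMS, was at 0.29 in H1299 and 0.03 in A549, and thymidine kinase 1, TK1, at 0.27 and 0.06, and neither passed.

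Stretches upstream of RRM2 are shown because it is the single gene of the set that passed. RefSeq gives RRM2 a pair of start sites on the plus strand of chromosome 2 in build GRCh38.p14, and before the downstream one lie 3 CCAAT boxes, the pentamer bound by the factor NF-Y, here in capitals. They begin 123, 93 and 66 bases before that start and share the bases that follow them.
RRM2 box at 123: gcagCCAATgggaaggg
RRM2 box at 93: acagCCAATgggaaggg
RRM2 box at 66: aaagCCAATgggaaggg
These stretches lie at chr2:10122612-10122628, chr2:10122642-10122658 and chr2:10122669-10122685. None of the 4 E2F octamers searched (TTTGGCGC, TTTCGCGC, TTTCCCGC and TTTGCCGC, on both strands) lies in the 250 bases before either start.

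Of the 8 regulators of the G1/S step, 5 lay above 0 in H1299 and 7 below 0 in A549, with medians of 0.09 and −0.15, and 6 had the larger ratio in H1299. CCND1, which encodes cyclin D1, had signals of 3079 with hMOF siRNA and 3849 with scramble in H1299, against 2407 with hMOF siRNA and 3850 with scramble in A549. The scramble arrays of the lines were level, and each hMOF siRNA array lay below them. Its log2 ratio was −0.32 in H1299 and −0.67 in A549, the lowest of the 43 in A549 (mean −0.50 ± 0.25, SD, n = 2 lines; limma adjusted p = 0.115, unadjusted p = 0.0153). The other CCND1 probe set gave −0.45 and −0.61. CDC25A, the phosphatase that activates CDK2, had signals of 1062 with hMOF siRNA and 619 with scramble in H1299, against 283 with hMOF siRNA and 306 with scramble in A549. Only the H1299 array with hMOF siRNA stood apart within its line, with log2 ratios of 0.75 in H1299 and −0.11 in A549 (limma adjusted p = 0.451). A dimmer CDC25A probe set gave 0.19 and 0.01.

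The cyclin E genes differed from each other. CCNE1 was at −0.22 in H1299 and −0.18 in A549, and CCNE2 at 0.38 in H1299 and −0.12 in A549. CDK2, the partner of cyclin E, was at 0.13 and −0.33, and CDK4, the partner of cyclin D, at 0.05 and 0.11. The activator genes E2F1 and E2F2 were at 0.31 and −0.04 in H1299 and at −0.08 and −0.39 in A549. A dimmer CDK2 probe set gave 0.07 in H1299 and 0.06 in A549, and a dimmer E2F1 probe set gave 0.12 and 0.14. On these probe sets CDK2 and E2F1 thus lay above 0 in A549. None of these 6 genes passed the test, with limma adjusted p values of 0.335 to 0.749.

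**Figure D2:**
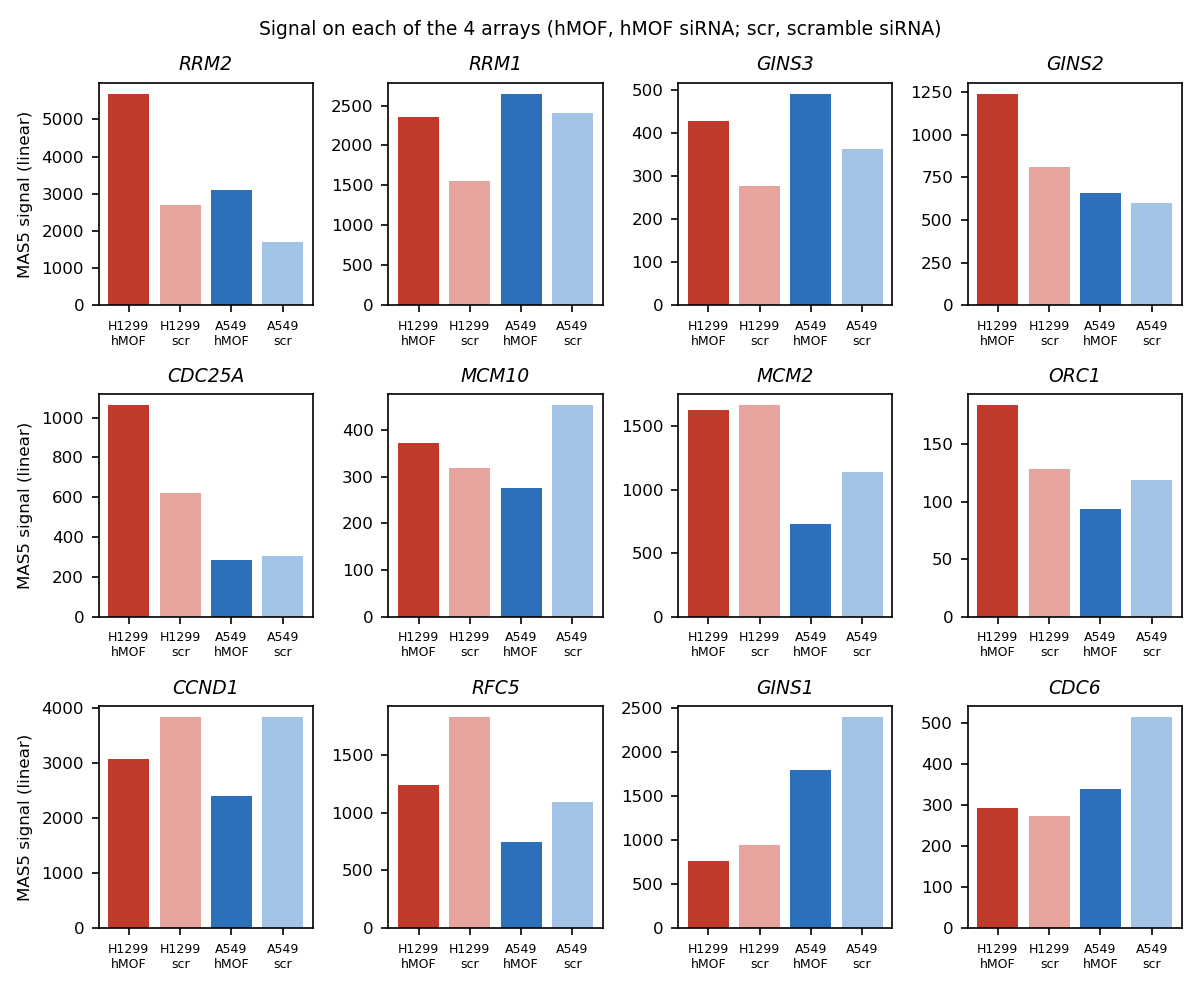
Linear MAS5 signal (y axis, its own scale in each panel) on each of the 4 arrays for 12 of the 43 genes, those with large ratios in 1 or both lines. RRM2 is higher with hMOF siRNA in both lines, CCND1, RFC5 and GINS1 are lower in both, and MCM10, ORC1 and CDC6 are higher in H1299 and lower in A549.

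The origin licensing genes all lay below 0 in A549, 10 of 10, with a median log2 ratio of −0.31, and 7 of 10 lay above 0 in H1299, with a median of 0.10. None passed the test over both lines. MCM2, a subunit of the replicative helicase, had signals of 1630 with hMOF siRNA and 1665 with scramble in H1299, against 729 with hMOF siRNA and 1140 with scramble in A549. The H1299 arrays were level and the A549 array with hMOF siRNA was the lowest of the 4, with log2 ratios of −0.03 and −0.63 (limma adjusted p = 0.331). The other helicase subunits ran from 0.03 (MCM5) to 0.36 (MCM3) in H1299, and from −0.45 (MCM5) to −0.15 (MCM4) in A549. MCM7 was at 0.18 in H1299 and −0.40 in A549, and MCM6 at 0.17 and −0.18. A dimmer MCM6 probe set gave −0.37 in H1299 and −0.80 in A549, below 0 in both lines.

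Among the loading factors, ORC1, the largest subunit of the origin recognition complex, had signals of 184 with hMOF siRNA and 128 with scramble in H1299, against 93.4 with hMOF siRNA and 119 with scramble in A549. It was the single gene of the 43 that was at least 1.2-fold higher in H1299 and at least 1.2-fold lower in A549, at 0.44 and −0.27 (0.631% of all genes; limma adjusted p over both lines = 0.844). CDC6, which loads the helicase with CDT1, had signals of 294 with hMOF siRNA and 274 with scramble in H1299, against 341 with hMOF siRNA and 516 with scramble in A549. The A549 scramble array stood above the other 3. The log2 ratios were 0.09 and −0.56, and the other CDC6 probe set gave 0.34 and −0.23. ORC6, the smallest subunit of the complex, had signals of 983 with hMOF siRNA and 1164 with scramble in H1299, against 866 with hMOF siRNA and 1106 with scramble in A549. It was at −0.24 and −0.34, and CDT1 at −0.01 and −0.10, both read on _x_at probe sets, a suffix for probes that may cross-hybridise. For CDT1 a dimmer probe set gave 0.42 in H1299 and 0.01 in A549.

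The upstream sequence of MCM6 is shown because it holds the most E2F octamers among the 37 genes of the set with a RefSeq promoter entry. RefSeq places it on the minus strand at chr2:135876444-135876693 in GRCh38.p14, and capitals mark E2F octamers and CCAAT boxes on either strand.
MCM6: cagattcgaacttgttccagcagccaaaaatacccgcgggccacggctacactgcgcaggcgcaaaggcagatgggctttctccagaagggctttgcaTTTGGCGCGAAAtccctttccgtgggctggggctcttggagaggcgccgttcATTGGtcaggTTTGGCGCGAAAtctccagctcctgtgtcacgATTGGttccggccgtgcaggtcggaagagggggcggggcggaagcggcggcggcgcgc
Its 4 octamers form 2 overlapping pairs, TTTGGCGC on the printed strand with TTTCGCGC on the other strand, which begin 152 and 90 bases before the start site.

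Of the 6 helicase activation genes, 5 lay above 0 in H1299 and 3 below 0 in A549. MCM10, which helps the loaded helicase to start unwinding, had signals of 372 with hMOF siRNA and 319 with scramble in H1299, against 276 with hMOF siRNA and 453 with scramble in A549. The array with the highest signal is A549 with scramble, and the lowest is A549 with hMOF siRNA. The log2 ratios were 0.20 in H1299 and −0.66 in A549, and their difference of 0.86 is the largest of the 43 genes (limma adjusted p over both lines = 0.606). The other MCM10 probe sets above the signal minimum gave 0.37 and 0.45 in H1299 and −0.48 and −0.56 in A549. CDC45, a helicase cofactor, was at 0.53 and −0.19.

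Of the 4 GINS subunits, 3 lay above 0 in both lines and 1 below 0 in both. GINS3 had signals of 427 with hMOF siRNA and 277 with scramble in H1299, against 492 with hMOF siRNA and 363 with scramble in A549, with log2 ratios of 0.58 and 0.41 (mean 0.49 ± 0.12, SD, n = 2 lines; limma adjusted p = 0.0863, unadjusted p = 0.00822). The other GINS3 probe set gave 0.45 and 0.34. GINS2 had signals of 1240 and 813 in H1299 and of 660 and 598 in A549, with hMOF siRNA and scramble in that order, and log2 ratios of 0.59 and 0.14. GINS4 had signals of 209 and 156 in H1299 and of 201 and 175 in A549, and log2 ratios of 0.36 and 0.18. GINS1 had signals of 761 with hMOF siRNA and 944 with scramble in H1299, against 1796 with hMOF siRNA and 2407 with scramble in A549, with log2 ratios of −0.30 and −0.42 (limma adjusted p = 0.143). No GINS gene passed the test, so subunits of 1 complex were read on different sides of 0 without a call on any of them.

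Upstream sequences of CDC25A and MCM10 are shown because their ratios differed most between the lines. They lie at chr3:48188418-48188667 on the minus strand and at chr10:13161308-13161557 on the plus strand in GRCh38.p14, and capitals again mark E2F octamers and CCAAT boxes.
CDC25A: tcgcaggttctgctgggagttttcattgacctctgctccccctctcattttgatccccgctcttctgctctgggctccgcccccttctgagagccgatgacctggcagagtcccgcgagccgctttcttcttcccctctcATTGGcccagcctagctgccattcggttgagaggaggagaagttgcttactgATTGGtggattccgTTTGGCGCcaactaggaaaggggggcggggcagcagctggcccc
MCM10: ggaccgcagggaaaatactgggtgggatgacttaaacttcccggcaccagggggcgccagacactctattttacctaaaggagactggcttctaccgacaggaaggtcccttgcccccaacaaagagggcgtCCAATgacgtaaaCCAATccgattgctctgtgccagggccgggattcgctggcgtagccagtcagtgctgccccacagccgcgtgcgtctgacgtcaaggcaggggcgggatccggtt
CDC25A holds 1 octamer, TTTGGCGC, which begins 44 bases before the start, and 2 CCAAT boxes on the other strand. MCM10 holds 2 CCAAT boxes and none of the 4 octamers.

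RefSeq's promoter table matched 37 of the 43 genes. In the 250 bases before a start site, 14 of the 37 (37.8%) held at least 1 of the 4 E2F octamers, against 4.60% of the 15843 protein-coding genes in the table. A CCAAT box was found in 23 of the 37 (62.2%), against 40.2% of protein-coding genes, and 10 (27.0%) held both, against 1.82%. These are matches of letters, a description of the windows and not binding sites.

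The elongation genes lay above 0 in H1299 for 8 of 9 and below 0 in A549 for 6 of 9, with medians of 0.27 and −0.22. POLA1, the catalytic subunit of polymerase alpha, was at 0.09 in H1299 and −0.47 in A549, while PRIM1, the primase of the same complex, was at 0.48 and 0.16. The PRIM1 signals were 1710 with hMOF siRNA and 1214 with scramble in H1299, against 729 with hMOF siRNA and 648 with scramble in A549. PCNA, the sliding clamp, was at 0.26 and 0.01, and FEN1, the flap endonuclease, at 0.28 and −0.17. POLE2, a subunit of polymerase epsilon, was at 0.29 and −0.22, and POLD1, the catalytic subunit of polymerase delta, at 0.05 and −0.28.

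RFC5 was the exception among the clamp loader genes. Its signals were 1239 with hMOF siRNA and 1830 with scramble in H1299, against 745 with hMOF siRNA and 1089 with scramble in A549. Both hMOF siRNA arrays lay below the scramble array of their line by about the same log2 amount, −0.55 and −0.53 (mean −0.54 ± 0.02, SD, n = 2 lines; limma adjusted p = 0.0680, unadjusted p = 0.00448). The other RFC5 probe sets did not show this in H1299. One of them read 813 and 728 in H1299 and 655 and 841 in A549 with hMOF siRNA and scramble, log2 ratios of 0.15 and −0.35, and the third gave 0.13 and −0.35. RFC3 and RFC4, which belong to the same loader, were at 0.34 and 0.27 in H1299 and at 0.07 and −0.23 in A549. A dimmer RFC3 probe set gave 0.44 in H1299 and −0.21 in A549.

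The chromatin and checkpoint genes lay below 0 in A549 for 6 of 6 and above 0 in H1299 for 5 of 6. CHAF1A, the large subunit of the CAF-1 histone chaperone, had signals of 861 with hMOF siRNA and 542 with scramble in H1299, against 435 with hMOF siRNA and 461 with scramble in A549. The H1299 array with hMOF siRNA stood above the other 3, with log2 ratios of 0.64 and −0.08 (limma adjusted p = 0.458). It was read on an _x_at probe set, and the other CHAF1A probe sets above the signal minimum gave 0.21 and 0.39 in H1299 and −0.0039 and 0.06 in A549. CHAF1B was at 0.18 and −0.04, SLBP, which binds the stem-loop of histone mRNAs, at 0.15 and −0.23, and the repair glycosylase gene UNG at 0.22 and −0.25. UHRF1, which guides maintenance DNA methylation, was at −0.03 and −0.09, and CLSPN, the checkpoint mediator claspin, at 0.05 and −0.21. None of the 6 passed.

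Set side by side, the lines differed in the same sense for nearly the whole set. The log2 ratio was larger in H1299 than in A549 for 40 of the 43 genes (93.0%), against 53.1% of all genes, and the median difference was 0.35, against 0.02 over all genes, whose middle 50% ran from −0.16 to 0.20. The 3 exceptions were RFC5 (−0.02), CCNE1 (−0.05) and CDK4 (−0.06). RFC5 was an exception on its main probe set only. Its other probe sets had the larger ratio in H1299, at 0.15 and 0.13, against −0.35 for each in A549. Of the 43 genes, 23 were above 0 in H1299 and below 0 in A549 (16.9% of all genes), and 0 were the other way round (1902 of all 12830 genes). After MCM10 (0.86) the largest differences belonged to CDC25A (0.86), CDC45 (0.73), CHAF1A (0.72), ORC1 (0.71) and CDC6 (0.65). The count was 40 or 41 of the 43 under most alternative offsets, filters, scalings and probe set rules. It was 39 of the 42 genes that remained with the higher filter or without _x_at probe sets. This difference could not be tested, since each line has a single pair of arrays, and genes of 1 pathway are not independent of each other. The 43 genes were also chosen with earlier results of these data known. Their shares set beside those of all genes thus describe the set and do not test it. The ACTB 3'/5' ratio was lower with hMOF siRNA in both lines, whereas that of GAPDH was level in H1299 and slightly higher with hMOF siRNA in A549, and their part in these ratios was not tested.

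**Figure D3:**
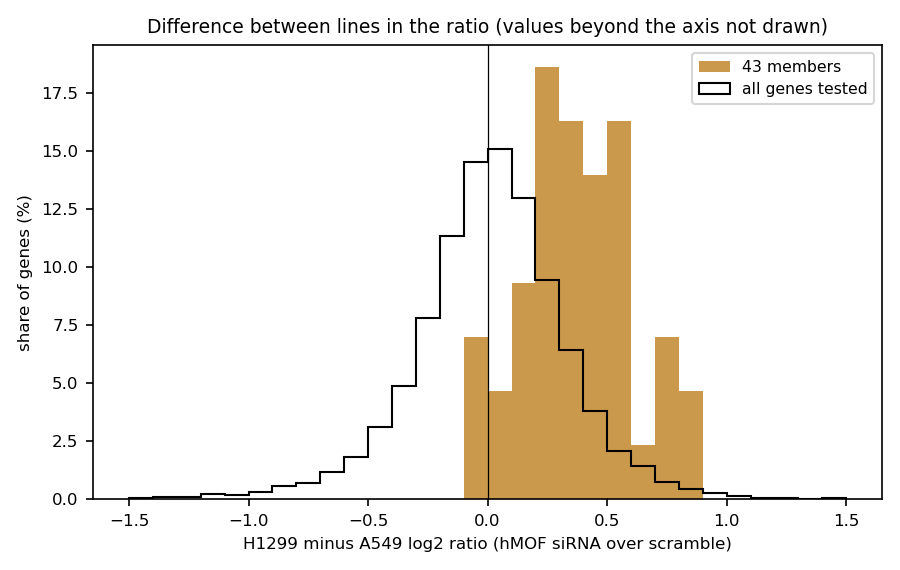
Share of genes (y axis, percent) by the H1299 minus A549 difference in the log2 ratio of hMOF siRNA over scramble (x axis, bins of width 0.1), with filled bars for the 43 genes and a line for all 12830 genes. The 43 genes lie to the right, with a median of 0.35 against 0.02 and with 3 genes below 0.

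The lines were then set against each other, with siRNA as the block, a comparison in which 52.4% of all genes were called. Of the 43 genes, 20 were called higher in H1299 (46.5%, against 25.1% of all genes) and 4 were called lower (9.30%, against 27.3% of all genes), and 19 did not pass (limma, adjusted p under 0.05). This test has the same error as the siRNA test, which grows with the gap between the lines' ratios. The shares called are thus likewise not read against each other. The median log2 difference was 0.44, against −0.03 over all genes. CDT1, the loading factor that is destroyed once S phase begins, had the largest difference, with signals of 1206 and 1213 in H1299 against 332 and 358 in A549, with hMOF siRNA and scramble in that order. The groups did not overlap, and H1299 was 3.31-fold higher (log2 1.73, SE 0.11; limma adjusted p = 4.33e-04). It was followed by CLSPN (365 and 351 against 106 and 128; log2 1.41), CDC25A (1.38), CCNE2 (611 and 462 against 182 and 201; log2 1.35) and TYMS (7435 and 6060 against 3098 and 3026; log2 1.13). The adjusted p of these 4 genes lay between 0.00107 and 0.00691. On its dimmer probe set, CDC25A differed by 0.08 and did not pass (limma adjusted p = 0.622).

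The 4 genes lower in H1299 were CCNE1, GINS1, PCNA and CDK4. CCNE1 had signals of 420 and 495 in H1299 against 1187 and 1345 in A549, log2 −1.41 (SE 0.11; limma adjusted p = 7.34e-04), so the cyclin E genes were called in opposite directions, CCNE1 lower and CCNE2 higher in H1299. GINS1 had signals of 761 and 944 against 1796 and 2407, log2 −1.27 (limma adjusted p = 0.00107), while GINS2 was called higher in H1299, at 0.65. For GINS2 a dimmer probe set gave −0.03 and did not pass. PCNA had signals of 3235 and 2696 in H1299 against 5238 and 5200 in A549, log2 −0.82 (limma adjusted p = 0.00523). CDK4 was at −0.39 (limma adjusted p = 0.0340), a call lost after quantile normalization (adjusted p = 0.0523). CDC6, at −0.52, did not pass (limma adjusted p = 0.0698), although it passed on its other probe set, at −0.68 (adjusted p = 0.0130).

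Helicase subunits MCM2, MCM3, MCM4, MCM5 and MCM7 were called higher in H1299, at 0.46 to 0.95, and MCM6 was at 0.31 and did not pass (limma adjusted p = 0.114). The line difference was wider on the hMOF siRNA arrays than on the scramble arrays. Over the 43 genes its median was 0.58 with hMOF siRNA and 0.14 with scramble, against −0.02 and −0.04 over all genes. At least 1.5-fold higher in H1299 were 21 of the 43 with hMOF siRNA (48.8%, against 19.6% of all genes) and 13 with scramble (30.2%, against 17.95% of all genes). That gap is the same quantity as the difference between the lines' ratios, from the same 4 arrays. Leaving out siRNA as a block gave 12 genes higher and 3 lower in H1299.

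**Figure D4:**
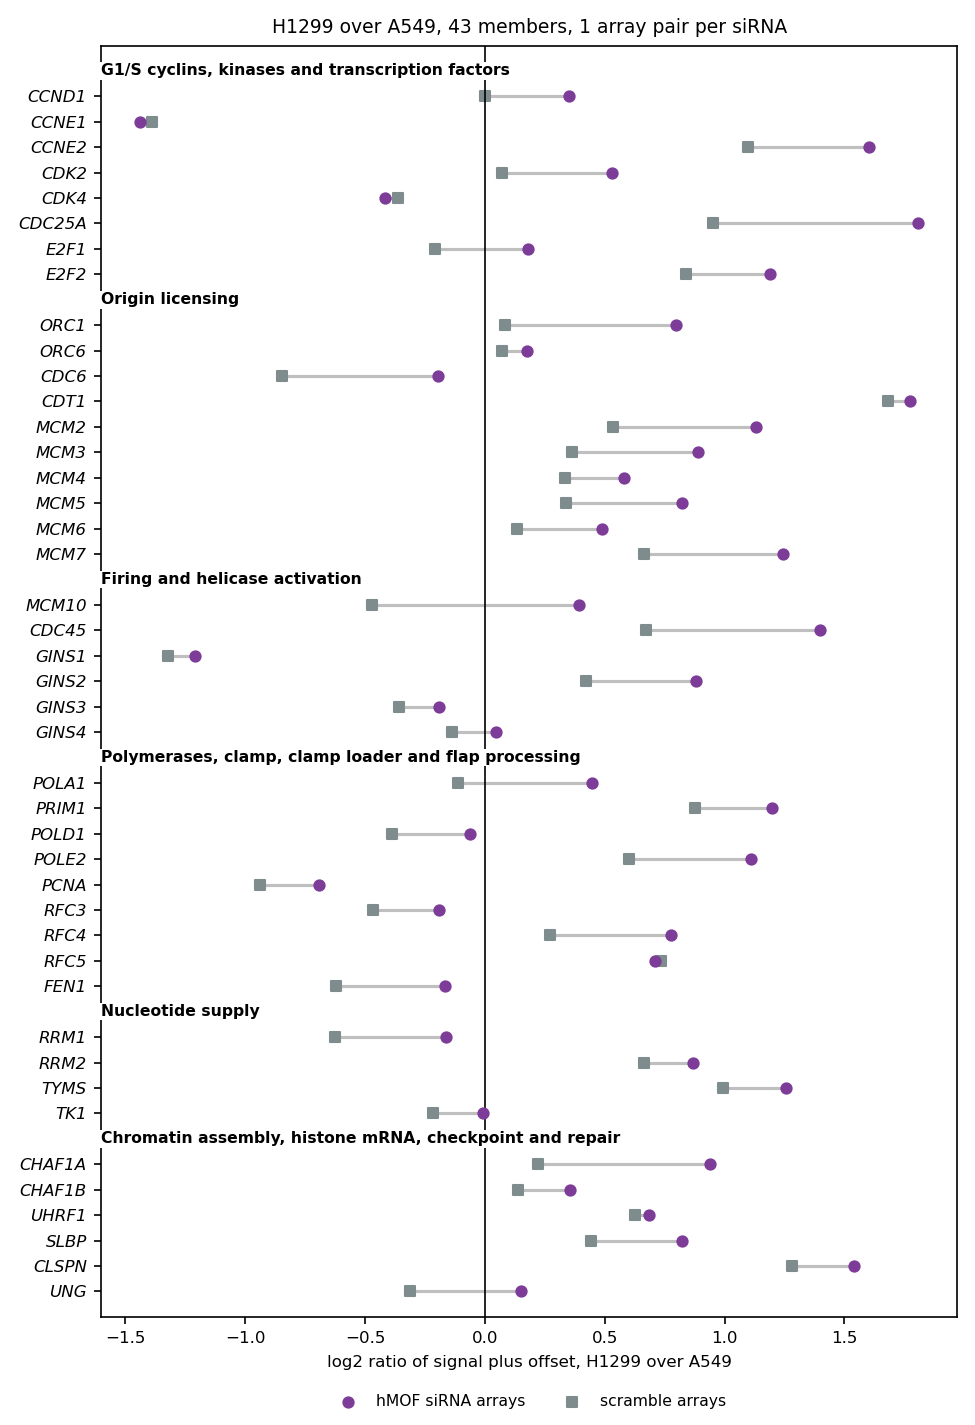
Log2 ratio of H1299 over A549 (x axis, log2 of signal plus offset) for each of the 43 genes, grouped by role, with a circle for the hMOF siRNA arrays and a square for the scramble arrays, each from 1 array pair. CDT1, CLSPN, CCNE2 and CDC25A lie far to the right and CCNE1 and GINS1 far to the left on both, and the circle lies to the right of the square for 40 of the 43 genes.

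Other genes of the same pathway were counted from a list of 70, of which 68 could be tested. The list was chosen with earlier results of these data known. Its shares set beside those of all genes thus describe the list and do not test it. With hMOF siRNA over both lines 8 of the 68 fell, 0 rose and 60 did not pass (limma, adjusted p under 0.05), a share of 11.8% lower against 2.41% of all genes. At an unadjusted p under 0.05, 18 of the 68 were lower (26.5%, against 14.6% of all genes) and 8 were higher (11.8%, against 9.14% of all genes). DBF4, the regulatory subunit that activates the CDC7 kinase at licensed origins, had signals of 632 with hMOF siRNA and 1273 with scramble in H1299, against 317 with hMOF siRNA and 819 with scramble in A549. Each hMOF siRNA array lay below both scramble arrays, with log2 ratios of −0.98 and −1.29 (mean −1.14 ± 0.22, SD, n = 2 lines; SE 0.13; limma adjusted p = 0.0321). DBF4B, the alternative activating subunit of the same kinase, had signals of 312 and 667 in H1299 and of 319 and 534 in A549, with hMOF siRNA and scramble in that order, and log2 ratios of −1.03 and −0.70 (limma adjusted p = 0.0471). All 8 genes were lower with hMOF siRNA on the array pair of each line.

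The other 6 are given with hMOF siRNA first and scramble second in each pair of signals, and with the log2 ratio in H1299 before that in A549. DSCC1, a subunit of the clamp loader that serves sister chromatid cohesion, had signals of 261 and 666 in H1299 and of 124 and 274 in A549 (−1.26, −0.99). HELLS, a chromatin remodeller, had 266 and 449 in H1299 and 235 and 535 in A549 (−0.70, −1.09). TFDP2, a dimer partner of E2F proteins, had 329 and 884 in H1299 and 436 and 771 in A549 (−1.35, −0.78). For these 3 genes both hMOF siRNA arrays lay below both scramble arrays. The same held for DBF4 and DBF4B above and for POLD3 and RNASEH2B below. The margin was small for DSCC1, with hMOF siRNA in H1299 against scramble in A549. It was also small for POLD3, with hMOF siRNA in A549 against scramble in H1299. The genes named here are those that the siRNA test on the same arrays called lower. Their separation thus describes those calls and adds no further evidence for them. The share of all genes separated in this way was not counted. POLD3, a polymerase delta subunit, had 323 and 574 in H1299 and 553 and 920 in A549 (−0.78, −0.71). RNASEH2B, a subunit of the enzyme that removes RNA from DNA, had 173 and 325 in H1299 and 215 and 350 in A549 (−0.81, −0.64). E2F5, an E2F of the repressor class, had 838 and 1367 in H1299 and 354 and 583 in A549 (−0.69, −0.68), so its H1299 arrays both lay above its A549 arrays.

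These calls lay close to the threshold, with adjusted p values of 0.0321 to 0.0496. The count was 3 with no signal filter and 4 when each array was centred on its median. It was 2 when centred on the median of the genes kept and 3 when probe sets were averaged. Without the block for cell line it was 0, as it was over all 12830 genes. DBF4 stayed past the threshold in every alternative that kept the block, and it has 1 probe set. On the probe set with the next highest mean signal, HELLS was at 0.06, DSCC1 at 0.09, RNASEH2B at 0.03, TFDP2 at 0.02 and POLD3 at −0.04 over both lines, and none of these 5 passed. For HELLS, 2 further probe sets gave −0.82 and −0.45 in H1299 and −0.99 and −0.77 in A549, on the side of the main one. For TFDP2, further probe sets above the signal minimum gave −0.15 and 0.13 in H1299 and −0.58 and −0.08 in A549. For RNASEH2B, a further one gave −0.05 in H1299 and −0.03 in A549. As a list, the 68 genes had a median log2 ratio of 0.01 in H1299 and −0.13 in A549, and the ratio was larger in H1299 for 51 of 68, against 53.1% of all genes.

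**Figure D5:**
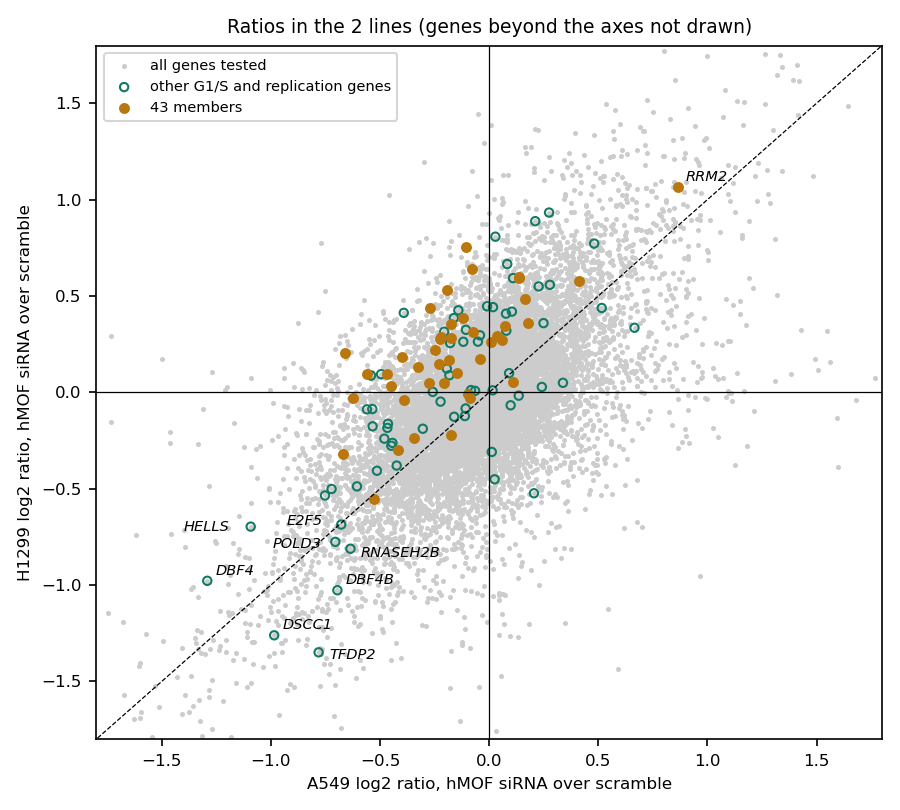
Log2 ratio of hMOF siRNA over scramble in H1299 (y axis) against that in A549 (x axis), with filled circles for the 43 genes, open circles for the other 68 genes of the pathway and grey points for all genes tested. Most of the 43 lie above the dashed line of equal ratios, RRM2 lies at the upper right, and the 8 named genes that fell lie at the lower left.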

How the data were processed

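Total RNA (6 ug per sample, per the labels) was hybridised as biotinylated cRNA to Affymetrix arrays with 54675 probe sets, 1 array per line and siRNA. The deposited values are linear signal intensities that the authors made with MAS5, per the submitters' processing notes. The version is not given in the sources used here. Nothing says that cultures were repeated, and having 4 arrays limits the precision. With 1 residual degree of freedom, the error of each gene comes from the gap between the lines' siRNA ratios, moderated over all genes. Whether that gap is technical is not known. The p-values thus do not measure a spread among repeats, and a gene whose response differs between the lines gets a larger error.

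Groups were taken from source names. Genes came from the platform annotation (41091 probe sets with 1 gene), with symbols updated by gene identifier from RefSeq's GRCh38.p14 table. Probe sets were kept at a mean signal of at least 78.1 (the 50th percentile), and log2(signal + 29.06) was used, the offset being the 20th percentile of all signals. No further normalization was applied. limma 3.58.1 in R 4.3.3 (lmFit, eBayes) was fitted to all genes with terms for line and siRNA, Benjamini-Hochberg adjusted, with 1 residual and 3.74 prior degrees of freedom. The procedure was tested on simulated data with the same siRNA effect in both lines and independent noise. That setting does not cover a gap between the lines' ratios that many genes share. Genes 1.5-fold or 2-fold within a line were counted with no test.

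The 43 genes, the list of 70 and the tests were chosen with earlier results of these data known. Values on all 4 arrays are given for genes called for the siRNA, the 5 highest and 5 lowest members by ratio in each line and by line difference, and genes 1.2-fold in opposite directions, and selected others. Figures used matplotlib 3.10.9. Alternatives are listed in the closing section.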

Additional observations from a re-analysis of the deposited data

Results flagged for a closer look

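The median log2 ratio of hMOF siRNA over scramble of the 43 genes lay above 0 in H1299 (0.20) and below 0 in A549 (−0.18), a gap of 0.38 between the medians, and the difference between the lines was not tested, since each line has 1 array pair. ORC1 was the single gene of the 43 that was at least 1.2-fold in opposite directions, at 0.44 in H1299 and −0.27 in A549, a difference of 0.71 that was likewise not tested.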

How the results depend on the processing

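Of the main results, those below moved by more than 1.5 times or changed a call, and their causes were not tested. Without cell line as the replicate block, 0 of the 43 genes, 0 of the 68 others and 0 of all 12830 genes were called for hMOF siRNA. Without siRNA as the block, 12 of the 43 were called higher in H1299. In that comparison 20 of the 68 were called between the lines, against 42 with the block. The labels give no replicate numbers, so the block is the line or the siRNA itself. The count of the 68 called for hMOF siRNA was 3 with no filter, 4 with centring on the array median, 2 with centring on the median of the genes kept (chosen after seeing the data) and 3 with the mean of the kept probe sets. In H1299 1 gene of the 43 was at least 1.5-fold higher with the mean of the kept probe sets and 1 with the second probe set. In A549 0 were 1.5-fold higher with the second probe set and 1 was 1.5-fold lower after quantile normalization. The median H1299 over A549 difference was 0.25 with the second probe set. The median log2 ratio in A549 was −0.11 with centring on the median of the genes kept, against −0.18. Offsets of 0 and 56.5, a filter at 179, leaving out _x_at probe sets and the eBayes trend moved none of these counts and medians that far.

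Directions that turned belonged to genes not called for that comparison, apart from 5 exceptions on the second probe set. For hMOF siRNA over both lines, the second probe set gave TFDP2 0.016, DSCC1 0.094, RNASEH2B 0.033 and HELLS 0.062, which had been called, and CDK2 0.064, CDC6 0.055, CDT1 0.22, MCM4 0.048 and MCM7 0.0037. Centring on the median of the genes kept gave CDT1 0.012, MCM4 0.040, MCM6 0.059, UHRF1 0.0058, SLBP 0.024 and UNG 0.052, the mean of probe sets gave CDT1 0.081 and MCM4 0.031, quantile normalization gave CDT1 0.0078 and UNG 0.011, and CDT1 was 0.22 without _x_at probe sets. For H1299 over A549, the second probe set gave GINS2 −0.029, which had been called, and CDK2 −0.24, E2F1 0.13, GINS3 0.071, RFC3 0.019 and TK1 0.013. E2F1 was 0.029 after quantile normalization, 0.0098 with centring on the array median, 0.066 with centring on the median of the genes kept and 0.059 with the mean of probe sets. MCM10 was 0.0036 after quantile normalization and 0.042 with centring on the median of the genes kept, where GINS4 was 0.034. Leaving out 1 line or 1 siRNA leaves the single ratios given in the text, with no test. For RRM2 these ran from 0.86 to 1.07.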
